A study of Sus scrofa with 36 samples.

Results

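Sialic acids are acidic sugars that cap the glycan chains of glycoproteins and gangliosides, and the brain is among the tissues richest in them. Cells make them from UDP-N-acetylglucosamine in a short cytosolic route, activate them in the nucleus and carry them into the Golgi, where sialyltransferases place them on proteins and lipids. On the neural cell adhesion molecule NCAM1 they can be strung into long chains of polysialic acid, a large charged coat known for loosening contacts between growing neurons. Sialic acid is also a component of milk, which is why these genes are of interest in a feeding study. Both formulas here were built on the same bovine whey, casein and lactose products and differed in their fat. The sialic acid content of the formulas was not analysed here, so whether its supply differed between the diets is not known from these data.

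The genes described here are 10 genes of sialic acid metabolism and polysialylation, taken by symbol from a list and not ranked by their values. Earlier results of these data were known when the genes were chosen. They are GNE, NANS, NANP, CMAS and SLC35A1 for synthesis, activation and transport, ST8SIA2, ST8SIA4 and NCAM1 for polysialic acid, and NEU1 and NPL for removal and breakdown. Of the 10, 9 had a row among the 31907 gene identifiers in the count tables, of which 15029 could be given a symbol. NANP, the phosphatase that releases free sialic acid, was not analysed here.

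The data are RNA-seq read counts per gene from the cerebellum of 36 crossbred Danish landrace × Yorkshire × Duroc piglets (Sus scrofa), 1 library per piglet. Piglets of normal birth weight (NBW, written NORM in the labels) or with intrauterine growth restriction (IUGR) entered at 3 days of age. For 3 weeks they received formula whose fat was vegetable oil (VEG) or came from bovine cream (MILK). The groups were VEG-NBW, MILK-NBW, VEG-IUGR and MILK-IUGR, with 9 piglets each. No group was sow-fed, so all 4 share formula feeding. The IUGR piglets were picked by low weight and head shape at birth, as a natural and not an induced growth restriction. The piglets came from several litters, and litter is not in the labels.

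In 1 library each of VEG-NBW (piglet 202), VEG-IUGR (piglet 210) and MILK-NBW (piglet 213), the share of read pairs not assigned to a gene stood apart from that of the other 8 libraries of the group. It was 43.6%, 64.3% and 31.5% in these, against 26.7% to 30.5% in the other 33. The values below are from those 33 libraries (8 VEG-NBW, 8 MILK-NBW, 8 VEG-IUGR and 9 MILK-IUGR, 16 females and 17 males), with 15516541 to 23027502 counts on genes. All 8 granule neuron and all 7 Purkinje cell markers were detected, and the forebrain gene EMX1 had a median of 0, as the label cerebellum asks. Summed CPM (counts scaled to the library total) of other cell types' markers varied widely, from 16.9 to 1683 for choroid plexus and from 8402 to 47586 for oligodendrocytes.

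A normalised count below is the deposited count divided by the library's size factor, and ± is the SD over piglets. Because transcript lengths were not used here, levels are compared between piglets and not between genes. In bulk tissue, fewer cells of a type and less RNA per cell cannot be told apart.

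All 9 measured genes were expressed in every one of the 33 piglets and passed the filter on low counts. The synthesis, activation and transport genes varied little, with coefficients of variation between 7.8% for CMAS and 10.6% for GNE. NCAM1 and NEU1 were equally even, at 9.51% and 8.89%. The polysialyltransferases varied more, at 14.9% for ST8SIA4 and 23.2% for ST8SIA2, and NPL varied most, at 32.9%. This was near the spread of genes with a similar mean count, for which the median coefficient was 25.0% beside ST8SIA2, 14.5% beside ST8SIA4 and 27.3% beside NPL. CMAS was among the steadier genes, since only 9.8% of all genes tested had a lower coefficient of variation.

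GNE (chromosome 1:236998754-237065819, build Sscrofa11.1) encodes the bifunctional epimerase and kinase that opens the pathway and sets its rate. Its normalised count was 828 ± 103 in VEG-NBW, 817 ± 94.0 in MILK-NBW, 782 ± 54.3 in VEG-IUGR and 845 ± 90.5 in MILK-IUGR. Over all piglets it ranged from 627 to 1004, with both ends in NBW piglets, and the 4 groups overlapped.

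NANS (chromosome 1:239881984-239912727) encodes the synthase that joins N-acetylmannosamine 6-phosphate to phosphoenolpyruvate. It overlaps TRIM14 in the RefSeq annotation, and the strand setting of the counting is not given in the sources used here, so its counts carry that uncertainty. Its normalised count was 2343 ± 262 in VEG-NBW, 2449 ± 272 in MILK-NBW, 2430 ± 282 in VEG-IUGR and 2374 ± 169 in MILK-IUGR. The lowest and highest piglets, at 1914 and 2749, were both VEG-IUGR.

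CMAS (chromosome 5:51438175-51458531) encodes the nuclear enzyme that couples sialic acid to CMP. Its normalised count was 1390 ± 100 in VEG-NBW, 1355 ± 128 in MILK-NBW, 1330 ± 69.7 in VEG-IUGR and 1442 ± 107 in MILK-IUGR. One MILK-NBW piglet, at 1659, lay above all others, and the remaining MILK-NBW piglets ended at 1362.

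SLC35A1 (chromosome 1:55859619-55895785) encodes the transporter that brings CMP-sialic acid into the Golgi. In VEG-NBW its normalised count ran from 583 through a median of 630 to 685. In MILK-NBW it ran from 477 through 538 to 619. In VEG-IUGR it ran from 492.7 through 588 to 746, and in MILK-IUGR from 519 through 588 to 667. The NBW groups barely overlapped, with MILK-NBW the lower, while each IUGR group overlapped both of them.

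ST8SIA2 (chromosome 7:86450302-86514232) and ST8SIA4 (chromosome 2:106754831-106845806) encode the polysialyltransferases that build the chains. ST8SIA2 was at 62.1 ± 9.96 in VEG-NBW, 59.8 ± 15.9 in MILK-NBW, 60.5 ± 9.90 in VEG-IUGR and 54.6 ± 18.1 in MILK-IUGR, in normalised counts. One MILK-IUGR piglet, number 207, stood low at 14.3, from 13 reads, where the next lowest piglet of its group had 39.1. ST8SIA4 was at 244 ± 52.7, 236 ± 35.5, 265 ± 20.7 and 257 ± 33.3 in the same order of groups. Its lowest piglets, at 157 and 171, were NBW, and its highest, at 336, was MILK-IUGR.

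NCAM1 (chromosome 9:40628602-40960605) encodes the main carrier of polysialic acid. Its normalised count was 10152 ± 1373 in VEG-NBW, 9850 ± 864 in MILK-NBW, 9936 ± 877 in VEG-IUGR and 9920 ± 748 in MILK-IUGR. The group means lay within 1 SD of each other, and the highest piglet, at 13101, was VEG-NBW. The counts are per gene and do not separate NCAM1 isoforms.

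NEU1 (chromosome 7:23953721-23958659) encodes the lysosomal sialidase, which clips sialic acid off glycans. It was at 656 ± 47.4 in VEG-NBW, 691 ± 41.3 in MILK-NBW, 642 ± 71.4 in VEG-IUGR and 649 ± 66.3 in MILK-IUGR. NPL (chromosome 9:124093579-124132862) encodes the lyase that splits free sialic acid into pyruvate and N-acetylmannosamine. It was at 48.9 ± 19.5, 40.6 ± 6.15, 45.5 ± 14.7 and 45.4 ± 17.1 in the same order. NPL differed more between piglets of 1 group than between groups, from 31.2 to 78.7 within VEG-NBW alone.

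**Figure D1:**
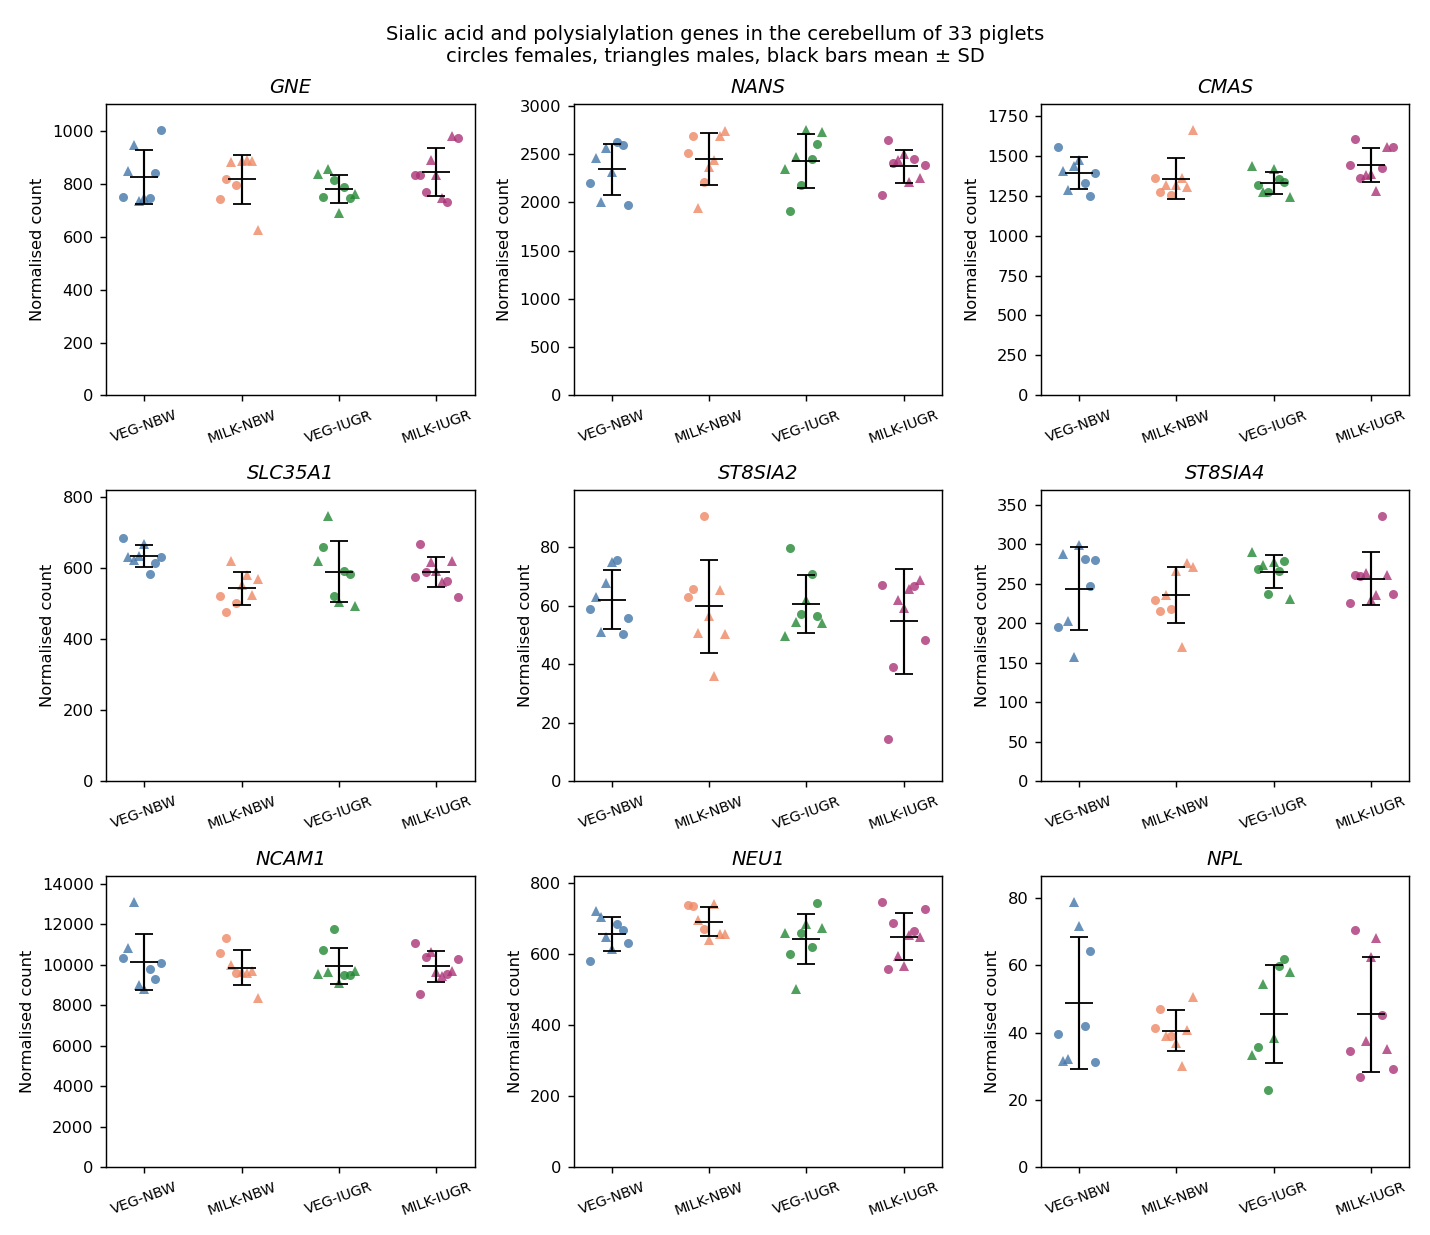
Normalised counts (y axis, from 0) of the 9 measured genes in each of the 33 piglets, by diet and birth weight group (x axis); circles are females, triangles are males, and black bars give the mean ± SD. The groups overlap in every panel, the means of SLC35A1 are 543 in MILK-NBW and 633 in VEG-NBW, and 1 MILK-IUGR piglet has ST8SIA2 at 14.3.

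The diet question was whether milk fat in place of vegetable oil changed these genes over all piglets. Of the 9 genes, 0 passed an adjusted p of 0.05 (edgeR quasi-likelihood test with sex as a covariate, Benjamini-Hochberg over 15356 genes), where 0% of all genes did. At an unadjusted p under 0.05, 1 of the 9 passed against 4.26% of all genes. That gene was SLC35A1, at a mean of 567.5 in 17 MILK piglets and 612 in 16 VEG piglets. Its log2 fold change was -0.11 (SE 0.05, 95% confidence interval -0.21 to -0.01, permutation p = 0.0428, edgeR adjusted p = 0.985). The median size of the log2 fold change was 0.049 over the 9 genes and 0.051 over all genes.

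Each of the 9 estimates had its own precision. The standard errors ran from 0.042 for CMAS to 0.162 for NPL on the log2 scale. For GNE the fold of MILK over VEG was 1.03, with an interval of 0.961 to 1.11, and for NCAM1 it was 0.987 (0.923 to 1.05). For ST8SIA2 it was 0.934 (0.772 to 1.13) and for NPL 0.913 (0.727 to 1.15). The intervals for GNE and NCAM1 were thus narrower than those for ST8SIA2 and NPL, the 2 members with the fewest reads.

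The birth weight question was whether IUGR piglets differed from NBW piglets. Of the 9 genes, 0 were called at the adjusted p, against 0% of all genes, and 0 had an unadjusted p under 0.05, against 2.19% of all genes. The log2 fold change furthest from 0 was that of ST8SIA4, at 261 in IUGR and 240 in NBW piglets (0.12, SE 0.08, permutation p = 0.0833, edgeR adjusted p = 1.0). NCAM1 gave -0.02 (SE 0.05), and GNE -0.01 (SE 0.05).

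The interaction asks whether the diet difference was another in IUGR than in NBW piglets. Here 0 of 9 genes were called, against 0% of all genes, and 1 of 9 had an unadjusted p under 0.05, against 6.09%. It was again SLC35A1, for which the interaction was 0.23 in log2 units (SE 0.09, 95% interval 0.04 to 0.42, edgeR adjusted p = 0.784). CMAS followed at 0.15 (SE 0.08, 95% interval -0.01 to 0.31).

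Within NBW piglets, SLC35A1 was at 543 ± 46.0 on MILK and 633 ± 31.5 on VEG, a log2 fold change of -0.23 in the edgeR fit (SE 0.07) and a fold of 0.856 (0.778 to 0.941). When each MILK-NBW piglet was set against each VEG-NBW piglet, the former was the higher in 3.12% of the pairs. The exact permutation p was 0.00109 (two-sided, on log2 CPM), and the edgeR adjusted p was 0.711. Of the 9 members, 1 had an unadjusted p under 0.05 and 0 were called, against 6.67% and 0% of all genes. SLC35A1 was therefore 1 of 1025 genes with such a p in this contrast. With all 9 piglets per group, the libraries that stood apart included, the means were 671 ± 185 and 551 ± 107, and the log2 fold change was -0.28 (SE 0.34, edgeR adjusted p = 1.0). Piglets 202 and 213 held the highest SLC35A1 values of the NBW groups, at 1158 and 813.

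Within IUGR piglets, SLC35A1 was at the same mean on both diets, 589 on MILK and 590 on VEG (log2 fold change 0.00, 95% interval -0.13 to 0.13). CMAS was the member with the smallest p in this contrast, at 1442 on MILK and 1330 on VEG (log2 fold change 0.12, SE 0.06, exact permutation p = 0.027, edgeR adjusted p = 0.996). Its MILK piglet was the higher in 83.3% of pairs. That was 1 of 9 members at an unadjusted p under 0.05 against 3.9% of all genes, with 0 called against 0%. GNE gave 0.11 (SE 0.07) and the other members between -0.15 and 0.01.

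Between birth weights on the VEG diet, 0 of 9 members had an unadjusted p under 0.05, against 2.29% of all genes, and on the MILK diet 0 of 9, against 6.24%. The adjusted calls were 0 in each, as for 0% of all genes. The smallest p was that of SLC35A1 on MILK, at 589 in IUGR and 543 in NBW piglets (log2 fold change 0.12, SE 0.07, exact permutation p = 0.0518, edgeR adjusted p = 0.771). The 4 contrasts share their groups in pairs, so the low MILK-NBW level of SLC35A1 enters 2 of them and the interaction.

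**Figure D2:**
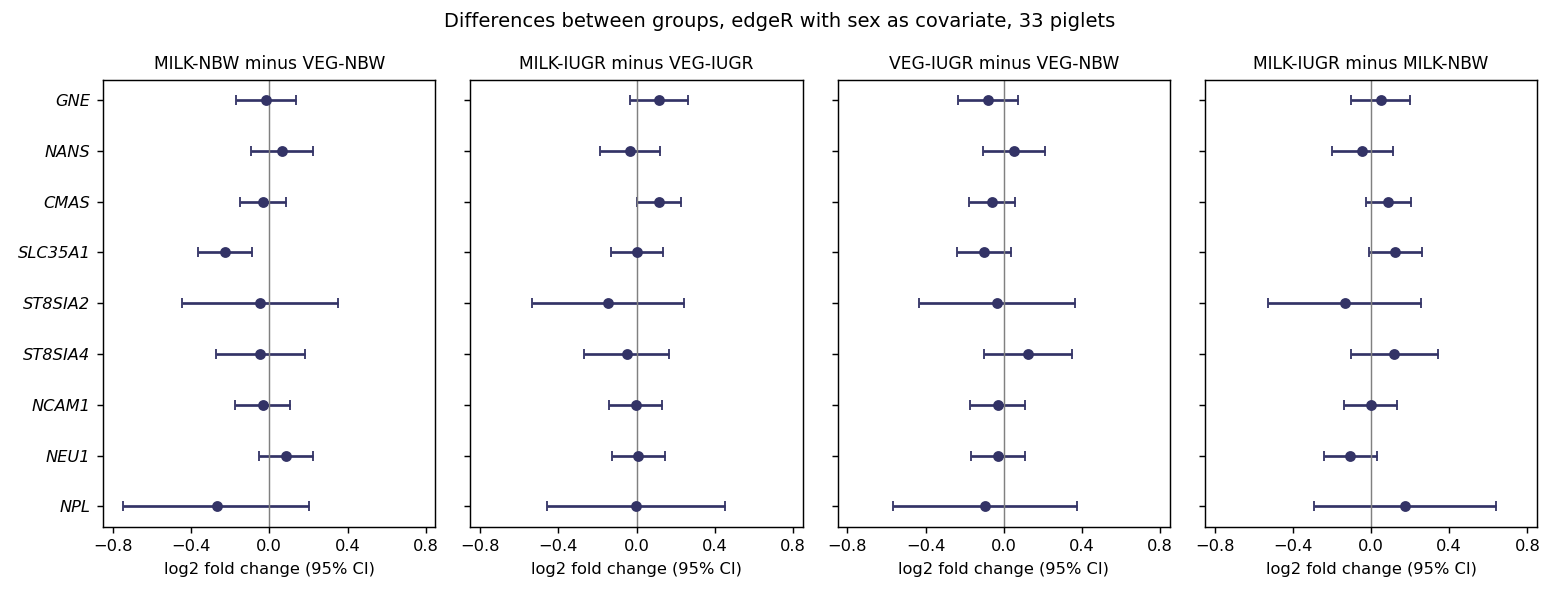
Log2 fold changes (x axis, points, with bars for the 95% confidence interval from the edgeR fit) of the 9 measured genes (y axis) in 4 contrasts between groups of the 33 piglets. In the MILK-NBW minus VEG-NBW panel the interval of SLC35A1 lies below 0 (-0.36 to -0.09); in the MILK-IUGR minus VEG-IUGR panel that of CMAS ends just above 0 (0.00 to 0.23), and no adjusted p was under 0.05.

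Between the sexes, 25 genes were called over the whole table (0.163%), and 0 of them were members. At an unadjusted p under 0.05 it was 0 of 9 members against 2.94% of all genes. The estimates for females minus males ran from -0.14 for NPL (SE 0.16) to 0.05 for NCAM1 (SE 0.05) on the log2 scale.

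The rest of the pathway was described by lists of 38 other sialic acid genes with a row in the tables, of which 36 passed the filter. ST6GALNAC1 and NEU2 did not. Over all 8 comparisons, 0 of the 36 were called, against 0.163% of all genes for sex and 0% for each of the others. For diet, 0 of 8 genes of sugar supply, 1 of 15 sialyltransferases, 1 of 4 sialidase and lysosomal export genes, 0 of 3 genes that modify sialic acid, 1 of 2 other carriers and 0 of 4 receptors had an unadjusted p under 0.05, where 4.26% of all genes did.

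The carrier was NRP2, neuropilin 2, a guidance receptor that can also bear polysialic acid. Its normalised count was 148 ± 30.3 in VEG-NBW and 179 ± 24.8 in MILK-NBW, and 155 ± 27.4 in VEG-IUGR and 179 ± 23.7 in MILK-IUGR. Its log2 fold change for MILK minus VEG was 0.25 (SE 0.08, 95% interval 0.08 to 0.41, edgeR adjusted p = 0.985). The ranges overlapped, from 116 to 204 in VEG-NBW and from 132 to 199 in MILK-NBW. The other 2, chosen after their values were seen, were the ganglioside sialyltransferase ST8SIA1 and the sialidase NEU4. NEU4 had medians of 89.9, 119, 86.4 and 98.6 in VEG-NBW, MILK-NBW, VEG-IUGR and MILK-IUGR.

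Among the genes with the highest normalised count in each list, none had an unadjusted p under 0.05 for diet. GFPT1, which feeds the hexosamine route that supplies the substrate of GNE, gave -0.05 (SE 0.04). ST8SIA5, which acts on gangliosides, gave 0.18 (SE 0.10). CTSA, the protective protein that holds NEU1 in its lysosomal complex, gave -0.07 (SE 0.06), and CASD1, which O-acetylates sialic acid, gave -0.05 (SE 0.06). CADM1, an adhesion molecule, gave -0.01 (SE 0.07). MAG, the sialic acid receptor of myelin, gave 0.09 (SE 0.14) and ranged from 4455 to 13264 over piglets, and it is also among the oligodendrocyte markers. Between the sexes CD22, a receptor of the same family, gave 0.30 for females minus males (SE 0.11, 95% interval 0.08 to 0.52, edgeR adjusted p = 1.0).

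**Figure D3:**
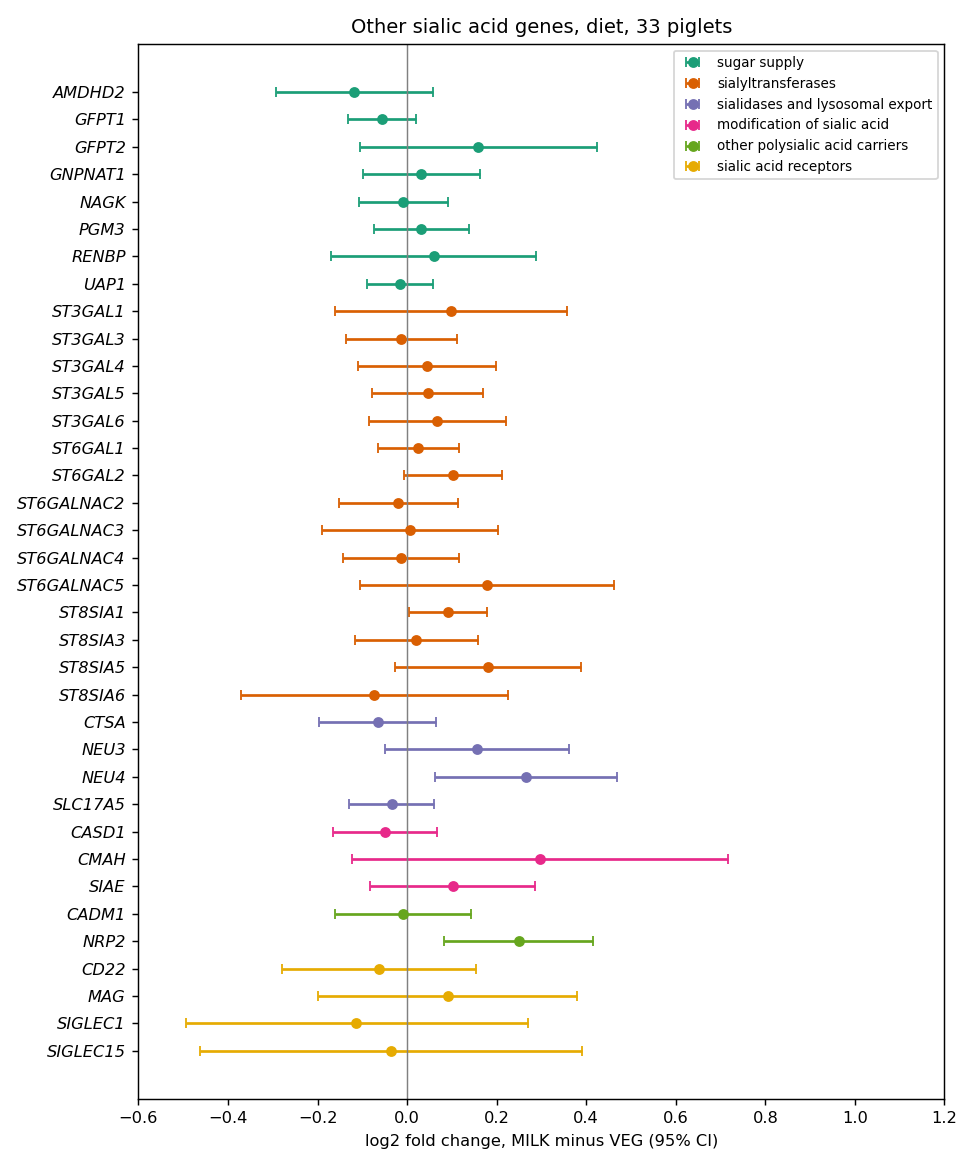
Log2 fold changes for MILK minus VEG (x axis, points, with bars for the 95% confidence interval from the edgeR fit, 33 piglets) of 36 other sialic acid genes (y axis), coloured by list. NRP2 (0.25), NEU4 (0.27) and ST8SIA1 (0.09) have intervals above 0, and 0 of the 36 passed an adjusted p of 0.05.

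Since the ranges of the groups overlapped for every member, the members were also compared with each other across the 33 piglets. Of 36 pairs, 2 had a Benjamini-Hochberg adjusted permutation p under 0.05 for Pearson's r of log2 CPM, and both were negative. The median size of r over the pairs was 0.184. All values of a piglet come from 1 library, so they share its composition.

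The first pair was the polysialic acid carrier and the lyase. NCAM1 and NPL gave r = -0.62 (permutation p = 7e-05, adjusted p = 0.00216) and rho = -0.656 (permutation p = 6e-05, adjusted p = 0.00216). Without the 2 piglets farthest from the median of NCAM1, r was -0.575. It was -0.71 in females and -0.53 in males, and -0.778 in VEG-NBW, -0.719 in VEG-IUGR and -0.756 in MILK-IUGR. In MILK-NBW it was -0.0109, and this difference between groups was not tested.

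The second pair was the Golgi transporter and the lysosomal sialidase. SLC35A1 and NEU1 gave r = -0.614 (permutation p = 0.00012, adjusted p = 0.00216) and rho = -0.532 (permutation p = 0.00148, adjusted p = 0.0227). Without the 2 piglets farthest from the median of SLC35A1, r was -0.467. It was -0.73 in females and -0.489 in males, and -0.696, -0.12, -0.77 and -0.72 in VEG-NBW, MILK-NBW, VEG-IUGR and MILK-IUGR. Removing group and sex means left r at -0.61, and at -0.631 for NCAM1 and NPL.

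The next pairs did not pass the adjusted threshold. NANS and NCAM1 gave r = -0.46 (rho = -0.403, permutation p = 0.00682 and 0.0208, adjusted p = 0.0818 and 0.141, r = -0.473 without the 2 farthest piglets). NANS and NPL gave r = 0.44 (rho = 0.473, permutation p = 0.0107 and 0.00592, adjusted p = 0.0967 and 0.0533, r = 0.446 without 2). GNE and NPL gave r = -0.423 (rho = -0.522, permutation p = 0.0137 and 0.00189, adjusted p = 0.099 and 0.0227, r = -0.393 without 2), so that this pair passed by rank only.

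The polysialyltransferases did not track their substrate or each other beyond the threshold. ST8SIA4 and NCAM1 gave r = -0.253 (rho = -0.314, permutation p = 0.155 and 0.0761, adjusted p = 0.4 and 0.211), and r = -0.515 without the 2 piglets farthest on ST8SIA4. ST8SIA2 and NCAM1 gave r = 0.187 (rho = 0.0251, permutation p = 0.277 and 0.889, adjusted p = 0.554 and 0.941), and -0.073 without piglet 207. ST8SIA2 and ST8SIA4 gave r = 0.0708 (rho = 0.108, permutation p = 0.679 and 0.548, adjusted p = 0.777 and 0.686).

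**Figure D4:**
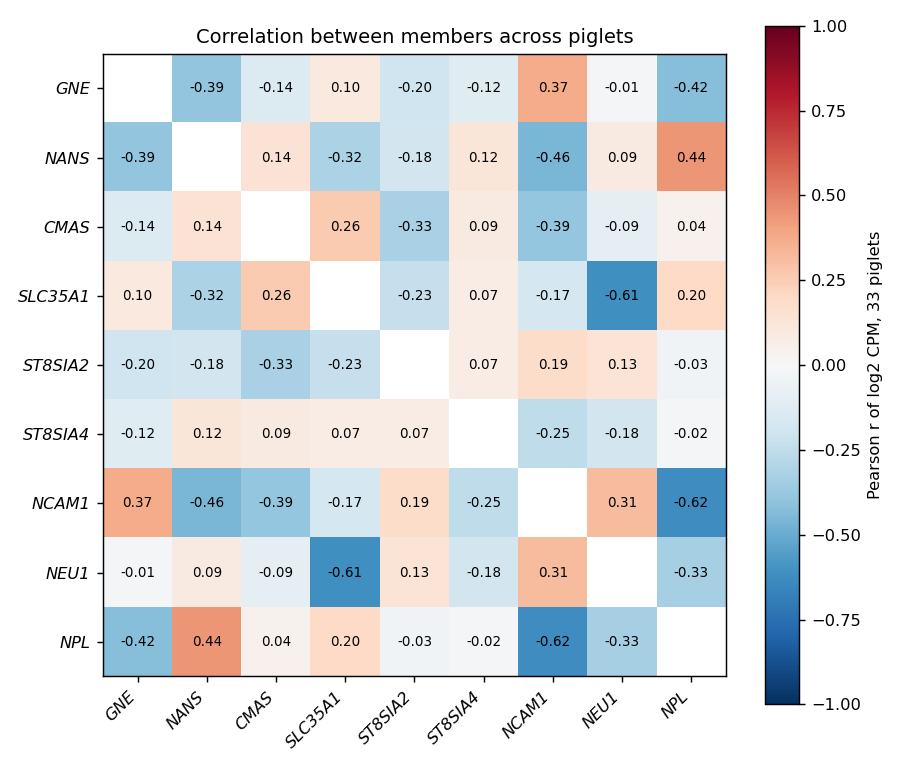
Pearson's r of log2 CPM for each of the 36 pairs of the 9 measured genes over 33 piglets, on a colour scale from -1 (blue) to 1 (red). The darkest cells are NCAM1 with NPL (-0.62) and SLC35A1 with NEU1 (-0.61).

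The share of read pairs not assigned to a gene moved with some members. It spanned 26.7% to 30.5% in the 33 libraries, and whether that spread reflects library quality was not tested. NCAM1 correlated with the share of read pairs not assigned to a gene at r = 0.666 (rho = 0.54, permutation p = 4e-05 and 0.00132, adjusted p = 0.00036 and 0.0119 over 9 genes), and at 0.462 without the 2 piglets farthest on that share. NANS gave r = -0.449 (rho = -0.366, permutation p = 0.00891 and 0.0369, adjusted p = 0.0401 and 0.111), and -0.289 without 2. NPL gave r = -0.417 (rho = -0.379, permutation p = 0.0156 and 0.0302, adjusted p = 0.0467 and 0.111), and -0.389 without 2. SLC35A1 gave 0.00726 (rho = -0.000334, permutation p = 0.969 and 0.999, adjusted p = 0.969 and 0.999), and -0.061 without 2. In females and males r was 0.331 and 0.83 for NCAM1, -0.191 and -0.616 for NANS, and -0.205 and -0.538 for NPL. For SLC35A1 it was -0.335 and 0.288. By group, in the order VEG-NBW, MILK-NBW, VEG-IUGR and MILK-IUGR, NCAM1 gave 0.844, 0.847, 0.584 and 0.177. NANS gave -0.701, -0.324, -0.51 and 0.018. The part of the share not assigned in the relation of NCAM1 and NPL was not tested.

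Markers of cell types moved with some members as well. Of 90 relations between a member and the summed CPM of a marker list, 20 had an adjusted permutation p under 0.05, of which 5 were for NPL, 5 for NANS and 4 for NCAM1. ST8SIA2 and ST8SIA4 had 0. The strongest for a synthesis gene was CMAS with the Purkinje cell list (r = 0.702, rho = 0.584, adjusted permutation p = 0.00045 and 0.00585). It was 0.522 in females and 0.876 in males, and 0.553 without the 2 piglets farthest on the list, 1 of which, piglet 234, is the MILK-NBW piglet with the highest CMAS and the highest Purkinje cell sum (4590 CPM, against a median of 2894).

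NPL and NANS rose with the microglia list of 6 genes, at r = 0.63 (rho = 0.662, adjusted permutation p = 0.0018 and 0.00225) and r = 0.617 (rho = 0.614, adjusted permutation p = 0.0018 and 0.003). Without the 2 farthest piglets r was 0.619 and 0.616. Both also rose with the other glial lists. With astrocytes and Bergmann glia, NANS gave r = 0.572 (rho = 0.614, adjusted permutation p = 0.00506 and 0.00252, 0.577 without 2) and NPL r = 0.544 (rho = 0.546, adjusted permutation p = 0.0101 and 0.011, 0.441 without 2). With oligodendrocytes, NANS gave r = 0.558 (rho = 0.63, adjusted permutation p = 0.0067 and 0.00247, 0.587 without 2) and NPL r = 0.483 (rho = 0.485, adjusted permutation p = 0.0235 and 0.0338, 0.435 without 2). NANS fell with the granule neuron list (r = -0.509, rho = -0.446, adjusted permutation p = 0.016 and 0.0547) and the forebrain list (-0.45, -0.414, 0.0375 and 0.0711). NPL fell with the forebrain list (r = -0.579, rho = -0.563, adjusted permutation p = 0.00506 and 0.0086). It also fell with granule progenitors and immature neurons (-0.469, -0.409, 0.0281 and 0.0741). NCAM1 fell with the astrocyte list, at r = -0.511 (rho = -0.505, adjusted permutation p = 0.0154 and 0.0232, -0.499 without 2), and with the microglia list, at r = -0.607 (rho = -0.613, adjusted permutation p = 0.0045 and 0.00411, -0.587 without 2). In MILK-NBW r was 0.144 with astrocytes and 0.0442 with microglia. In VEG-NBW, VEG-IUGR and MILK-IUGR it was -0.673, -0.416 and -0.783 with astrocytes. With microglia it was -0.784, -0.527 and -0.794 in the same order. These differences between groups were not tested. The microglia list summed to between 73.9 and 235 CPM per piglet, and its ranges in the 4 groups overlapped.

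NCAM1 rose with the granule neuron list, at r = 0.63 (rho = 0.552, adjusted permutation p = 0.0018 and 0.0106, 0.57 without 2). This r was 0.285 in females and 0.777 in males. NCAM1 was more closely related to the list drawn up for forebrain (r = 0.757, rho = 0.731, adjusted permutation p = 0.00045 and 0.0009, 0.668 without 2). That sum, of 249 to 382 CPM, is nearly all NEUROD2, which granule neurons of the cerebellum also express, while EMX1 was at or near 0. NEU1 rose with the list of granule progenitors and immature neurons (r = 0.574, rho = 0.638, adjusted permutation p = 0.00702 and 0.0024, 0.562 without 2). That list's sum was mostly TUBB3 and CNTN2, with medians of 798 and 455 CPM. TOP2A, DCX, SOX11 and ATOH1 had medians of 73.0, 62.8, 32.0 and 8.18 CPM. The relation of NEU1 with each gene of the list was not tested. GNE rose with the granule neuron list (r = 0.51, rho = 0.441, adjusted permutation p = 0.0165 and 0.0557, 0.313 without 2). That r was -0.121 in females and 0.825 in males. With the meninges list GNE fell (r = -0.481, rho = -0.419, adjusted permutation p = 0.0235 and 0.0702, -0.565 without 2). SLC35A1 fell with the oligodendrocyte list (r = -0.501, rho = -0.447, adjusted permutation p = 0.0172 and 0.0547, -0.418 without 2). Oligodendrocyte sums had medians of 15123 CPM in VEG-NBW and 20785 in MILK-NBW. They had medians of 16635 CPM in VEG-IUGR and 19719 in MILK-IUGR, where the means of SLC35A1 were 590 and 589. Within groups, r was -0.197 in VEG-NBW, -0.51 in MILK-NBW, -0.815 in VEG-IUGR and 0.22 in MILK-IUGR. The part of the oligodendrocyte markers in the diet estimates of SLC35A1 was not tested.

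Over 12515 genes with a symbol, those most like ST8SIA4 across the 33 piglets were genes of dividing cells. They were the kinetochore protein CENPF (r = 0.806), the topoisomerase TOP2A (0.771), the centromere protector SGO2 (0.748), the resolvase GEN1 (0.732) and the condensin subunit SMC2 (0.73). With CENPF, r was 0.629 in females and 0.904 in males. Left without piglet 207, the 5 values lay between 0.729 and 0.816. These are the highest of many values and are given as a description, with no test. TOP2A is also in the list of granule progenitors and immature neurons, whose sum is mostly TUBB3 and CNTN2. ST8SIA4 gave r = 0.0878 with that sum (rho = 0.0592, adjusted permutation p = 0.834 and 0.996).

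The genes most like NCAM1 were MCF2L (r = 0.855), NAV3 (0.854), DOCK3 (0.851), ARHGEF11 (0.849) and SRGAP3 (0.844). MCF2L, DOCK3 and ARHGEF11 encode guanine nucleotide exchange factors, SRGAP3 a GTPase-activating protein, and NAV3 a neuron navigator. Within females and within males these 5 values lay between 0.721 and 0.942.

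The genes most like ST8SIA2 were DCHS1 (r = 0.743), PITPNM2 (0.722), GSE1 (0.72), IGDCC4 (0.717) and KIF21B (0.714), and these values rested on 1 piglet. Without piglet 207, the MILK-IUGR piglet with 13 ST8SIA2 reads, they were 0.136, 0.155, 0.291, 0.312 and 0.0943.

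**Figure D5:**
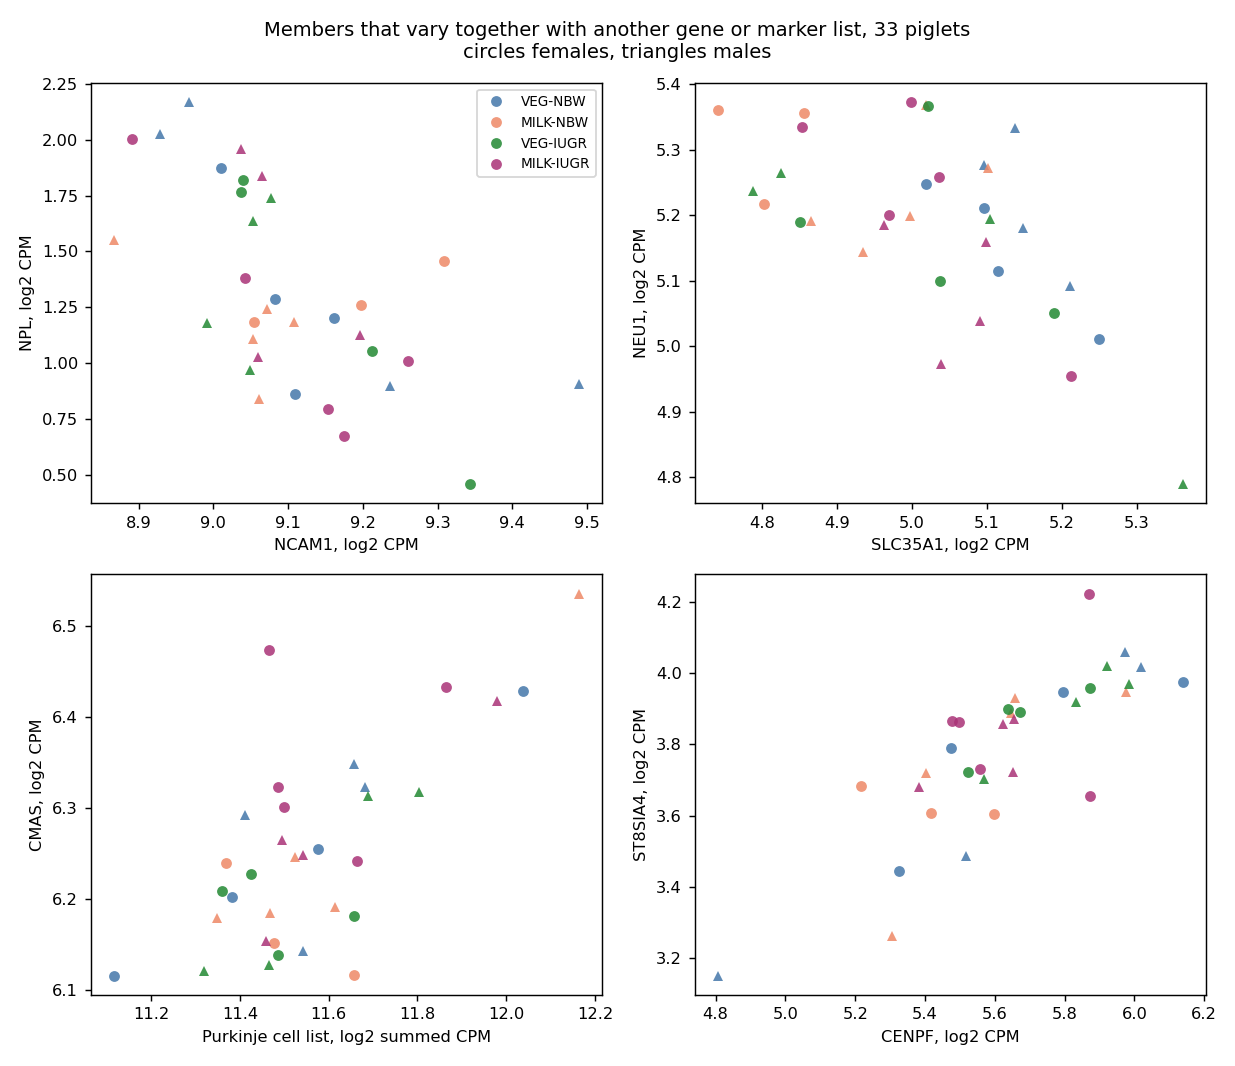
Log2 CPM of a member (y axis) against that of another gene, or against the log2 summed CPM of the Purkinje cell list (x axis), for 33 piglets; colours give the group, circles females and triangles males. NPL falls with NCAM1 (r = -0.62), NEU1 falls with SLC35A1 (r = -0.614), CMAS rises with the Purkinje cell list (r = 0.702) and ST8SIA4 rises with CENPF (r = 0.806).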

How the data were processed

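Per the labels, the authors trimmed reads with Trim Galore, aligned them with HISAT2 to Sscrofa11.1 and counted read pairs per Ensembl gene with HTSeq. Versions, annotation release and strand setting are not given in the sources used here. The deposited counts are raw, with 1 file per piglet. Rows that name no gene (26.7% to 64.3% of read pairs) stayed out of library sizes and tests. Symbols came from a table of pig gene identifiers, and coordinates from RefSeq on the same build.

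The study dropped 3 libraries for low RIN, giving their groups (1 MILK-NBW, 1 VEG-NBW, 1 VEG-IUGR) but not the piglets. Here piglets 202, 210 and 213, which are of those groups, were left out for their share not assigned. edgeR 4.0.16 (R 4.3.3, TMM, filterByExpr with a minimum count of 10, quasi-likelihood F test) was fitted on 15356 genes, with diet, birth weight and sex for the main effects and with 4 group means and sex for the interaction, contrasts and sex. Each contrast of a member was also tested by an exact two-sided permutation of log2 CPM (prior count 2). Plotted values used DESeq2 1.42.0 size factors. Correlations used 100000 two-sided permutations, and those with marker lists were added after the data were seen. Scripts were tested on simulated data. No 2 libraries of a group agreed within counting noise.

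The members, gene lists and left-out libraries were chosen with earlier results of these data known. Named by rule were all members, other pathway genes with an unadjusted p under 0.01 in any of 8 comparisons, the gene of highest count per list, the 5 pairs with the smallest p and 3 polysialylation pairs, and the 5 genes most like ST8SIA2, ST8SIA4 and NCAM1. Alternatives covered all 36 libraries, piglet 207 left out, other scalings, filters and tests (DESeq2, limma voom 3.58.1), no sex term, the share not assigned as a covariate and only the 2 groups compared. Alignment and counting were not repeated.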

Additional observations from a re-analysis of the deposited data

Results flagged for a closer look

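Of the 36 sets of values formed by 9 members and 4 groups, 3 held a piglet whose gap to the rest was large for the range of its group, where chance gives about 1 in 20. CMAS was at a normalised count of 1658.68 in MILK-NBW piglet 234, against 1252 to 1362 in the other 7 piglets of the group. The same piglet had the lowest GNE (627) and the lowest NCAM1 (8356) of the 33. ST8SIA4 was at 335.767 in MILK-IUGR piglet 232, against 225 to 264 in the others, and this piglet had the lowest GNE of its group (732). NCAM1 was at 13100.7 in VEG-NBW piglet 215, against 8816 to 10824. None of these piglets was among those left out.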

How the results depend on the processing

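In every alternative run, 8 to 10 per comparison, 0 of the 9 members were called for diet, birth weight, their interaction, the 4 contrasts or sex. The smallest adjusted p of any member in any of them was 0.372, for MILK-NBW against VEG-NBW (edgeR, DESeq2 or limma). Of 72 log2 fold changes, 30 moved by more than their standard error when all 36 libraries were used, and 0 did so under the other alternatives. With all 36 libraries, 31 of 36 pairs of members and 9 of 9 members with the share not assigned had an adjusted permutation p under 0.05, against 2 and 3. Piglet 210 alone, at 0 counts for 6 of the 9 members (CMAS, SLC35A1, ST8SIA2, ST8SIA4, NEU1 and NPL), is among the 3 added libraries. Of the relations with the share not assigned, 1 passed by Spearman's rho and 1 without piglet 207. No paired analysis was possible because the labels give no replicate numbers shared between groups. Library depth limits NPL and ST8SIA2 most, with as few as 20 and 13 reads per library, and litter could not be entered.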
